A study of Sus scrofa with 24 samples.

Results

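The genes of the mitochondrial respiratory chain, of its assembly and of coenzyme Q were followed in the liver of pigs from lines selected for residual feed intake (RFI), the feed eaten beyond what growth and maintenance predict. Members were taken by gene name: every NDUF, UQCR and ATP5 gene, SDHA to SDHD, the numbered COX and COQ genes, CYC1 and CYCS. The array carried 265 probes for 73 such genes among 43603 probes in all, and 67 genes, with 253 probes, were bright enough to be tested. Each gene is represented by its brightest tested probe.

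Liver was collected at 115 kg body weight from 8 pigs in each of 3 groups, with 1 array per pig. RFIneg pigs belonged to the low RFI line and ate ad libitum. RFIpl pigs belonged to the high RFI line and ate ad libitum. RFIplR pigs also belonged to the high RFI line but were held to the intake of the RFIneg line. RFIpl minus RFIneg therefore compares the lines at free intake, RFIplR minus RFIpl compares feeding levels within the high RFI line, and RFIplR minus RFIneg compares the lines at the lower intake. The comparisons share groups, so they are not independent of one another. RFIneg and RFIpl are selected lines, and whether pigs within a line were littermates was not given in the sources used here.

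Complex I (NADH dehydrogenase) and complex II (succinate dehydrogenase) pass electrons from fuel breakdown to coenzyme Q, a lipid carrier in the inner mitochondrial membrane. Complex III hands them to the small protein cytochrome c, and complex IV (cytochrome c oxidase) passes them to oxygen. Complexes I, III and IV pump protons, and complex V (ATP synthase) uses the proton gradient to make ATP. Most subunits are encoded in the nucleus and a few core subunits in mitochondrial DNA, and hepatocytes, which are rich in mitochondria, rely on the chain for ATP and for burning fatty acids.

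All levels below are log2 values of the scanner's processed signal relative to the 75th percentile of the same array, and every difference is a difference of such levels. Levels of different probes cannot be set against each other. The arrays came from 6 slides and 2 scan days, each slide and day holding all 3 groups, and each array had 63.2% to 72.7% of its spots well above background. Scan day 1 held RFIneg pigs 1, 5 and 7 and RFIpl pigs 2, 4, 5 and 6. It also held RFIplR pigs 1, 2, 4, 6 and 8, so scan day was partly bound up with group, most in RFIplR minus RFIneg. Of the 7 hepatocyte markers measured, all were bright, with albumin (ALB) at 9.43. No marker of hepatocytes, bile duct, stellate cells, endothelium, macrophages, lymphocytes, muscle, pancreas or fat passed the test. The stellate and fibroblast markers lay below 0 in 5 of 6 cases in RFIplR minus RFIneg, 3 of them with an unadjusted p below 0.05. RGS5 differed by -1.28 (limma adjusted p = 0.0698), COL1A2 by -0.84 (limma adjusted p = 0.0848) and DCN by -0.62 (limma adjusted p = 0.337) there, and RGS5 and COL1A2 by -1.10 and -0.54 in RFIpl minus RFIneg (limma adjusted p = 0.162 and 0.406). The summed level of these 6 markers, as a multiple of the array's 75th percentile, ranged from 26.6 to 57.1 in RFIneg, 22.5 to 51.7 in RFIpl and 19.98 to 51.0 in RFIplR pigs; the brightest probes, those of ACTA2 and DCN, carry most of that sum. The pancreatic marker CPA1 differed by -1.81 in RFIplR minus RFIneg (limma adjusted p = 0.0857) and by -1.32 in RFIpl minus RFIneg (limma adjusted p = 0.317). AMY2, the other pancreatic marker measured, went the other way, at 0.03 and 0.19. The macrophage marker CD163 differed by 0.48 in RFIplR minus RFIneg (limma adjusted p = 0.201), while the other macrophage markers measured, C1QA and CD14, lay at 0.14 and -0.02 there. In such tissue samples fewer cells of a type and less RNA per cell cannot be told apart, and the part of these markers in the results below was not tested.

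Among the 67 tested members only COQ3, which methylates the coenzyme Q ring during its synthesis, passed the threshold, an adjusted p below 0.05 over all 29665 tested probes with limma. It was lower in RFIplR than in RFIneg pigs. In RFIpl minus RFIneg 0 members passed, beside 45 of all probes (0.152%), and 6 had an unadjusted p below 0.05, beside 9.59% of all probes: 2 higher, beside 5.09% of probes, and 4 lower, beside 4.5%. In RFIplR minus RFIpl 0 members and 0 of all probes (0%) passed, and 4 members had an unadjusted p below 0.05, beside 5.31% of probes; all 4 were higher, beside 2.82% of probes, and 0 lower, beside 2.49%. In RFIplR minus RFIneg 1 member and 82 probes (0.276%) passed, the member being lower as were 0.111% of probes. There 11 members had an unadjusted p below 0.05, beside 12.7% of probes: 9 higher, beside 6.59%, and 2 lower, beside 6.16%. The F test over the 3 groups passed for 0 members and for 61 probes (0.206%); at an unadjusted p below 0.05 it picked 10.8% of all probes. Over both directions together, the members' shares at an unadjusted p below 0.05, 8.96%, 5.97% and 16.4%, lay close to those of all probes. By direction the members were less even than all probes where RFIplR was compared. In RFIplR minus RFIneg 9 of the 11 were higher, and in RFIplR minus RFIpl all 4 were. This unevenness was not tested. In no comparison were the ranges of the groups apart for any member, as they were for 0.138%, 0.0337% and 0.145% of all probes.

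The direction of the members was uneven when the restricted pigs were compared. In RFIpl minus RFIneg 34 members lay above 0 and 33 below, beside 50.8% of all probes above 0, with a median difference of 0.0007. In RFIplR minus RFIpl 51 lay above and 16 below, beside 49% of probes above 0, with a median of 0.058. In RFIplR minus RFIneg 48 lay above and 19 below, beside 50.3% of probes above 0, with a median of 0.065. The medians of all probes were 0.003, -0.003 and 0.001. These member medians are smaller than the spread between pigs: the median deviation of the members had a within-group SD of 0.10 over pigs. That SD describes single pigs and is not the error of a difference between group means. They also moved with the processing. The median in RFIplR minus RFIneg was 0.18 after normexp background correction and 0.02 after quantile normalization, and that in RFIplR minus RFIpl was 0.02 without RFIpl pigs 5 and 7. Within groups the median correlation between members was 0.25, beside 0.0065 for all named genes tested. The counts above and below 0 are therefore not counts of independent genes. No such count or median was tested.

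**Figure D1:**
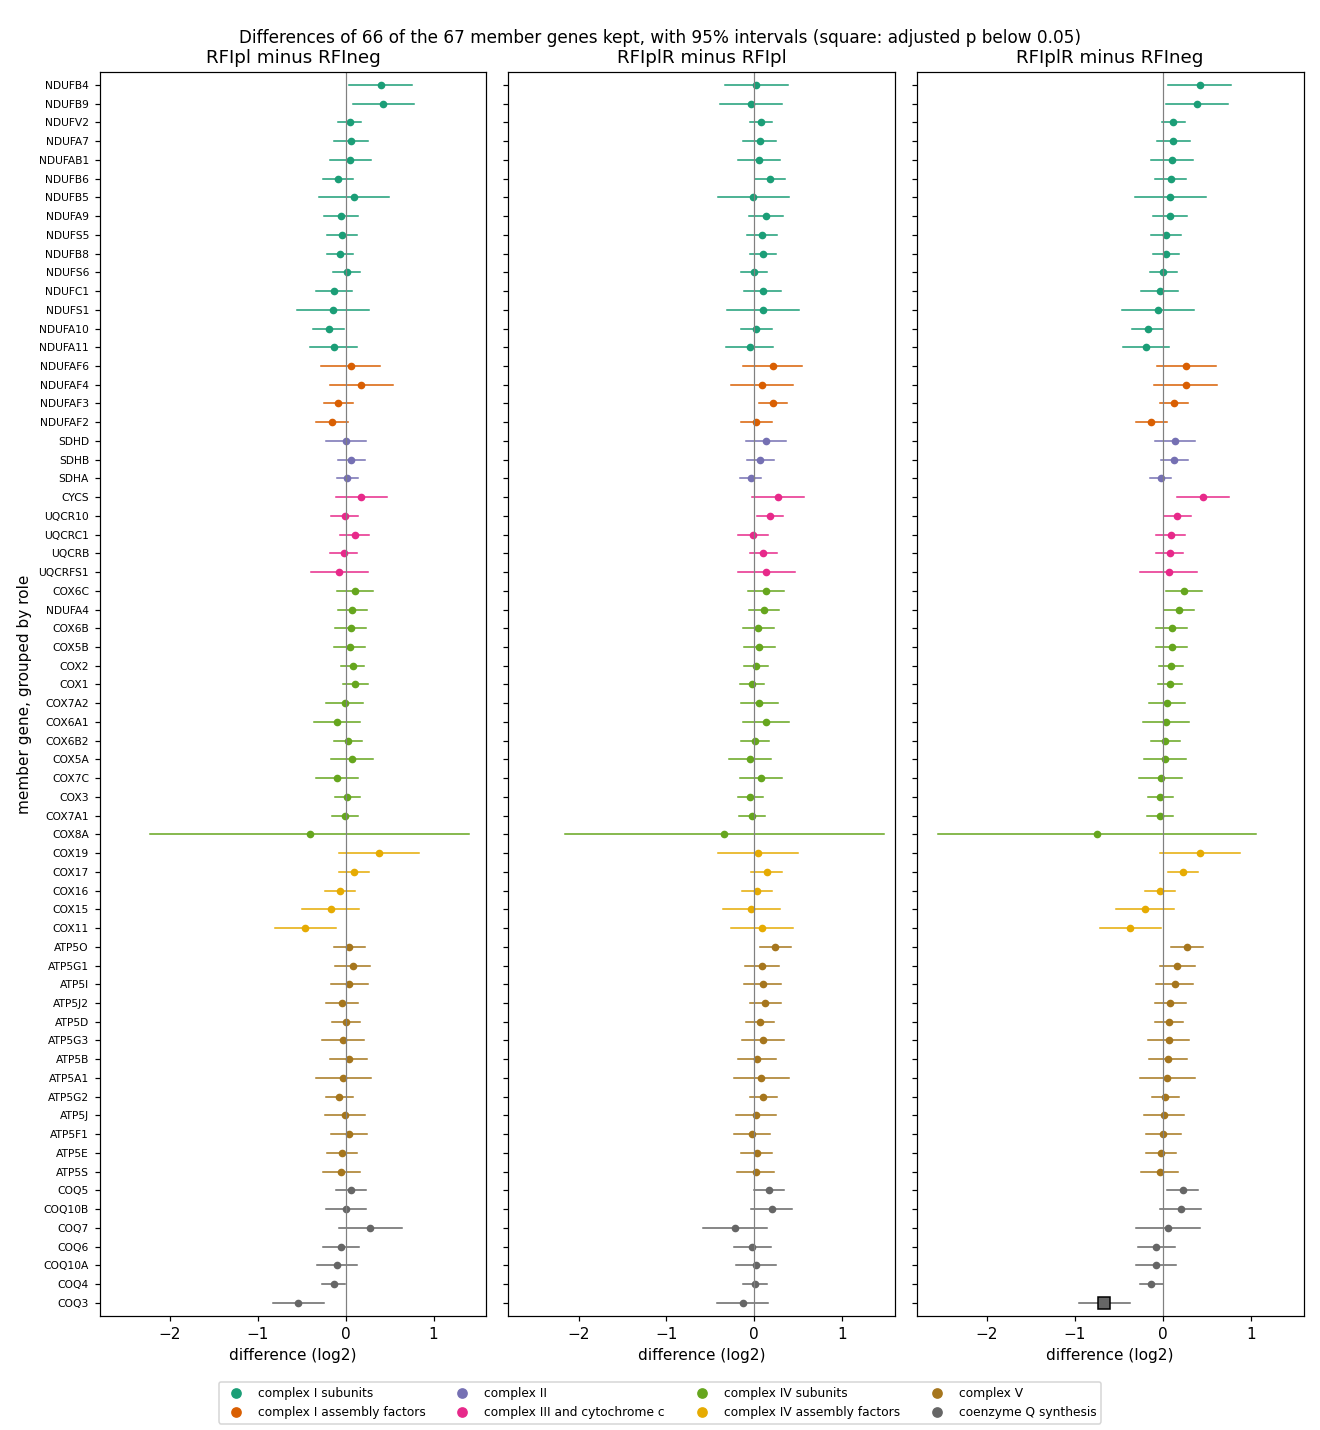
Difference in level (log2) of 66 of the 67 tested member genes in the 3 comparisons, with 95% intervals from limma; colours mark the role and the 1 square marks COQ3, the gene past the threshold. Most intervals lie between -0.5 and 0.5, and COX8A has by far the widest interval.

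The precision was high for most members. The residual SD between pigs of a group had a median of 0.18 over the members against 0.27 over all tested probes, and 15 of 67 members (22.4%) lay above the latter. For 66 members the 95% intervals of all 3 differences lay between -1 and 1, and for 55 between -0.5 and 0.5. COX8A was the exception to the wider range. The widest bounds among the other members were -0.96 and 0.87.

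By pig, the median deviation of all members from their own means ranged from -0.13 to 0.14 in RFIneg, from -0.16 to 0.16 in RFIpl and from -0.05 to 0.24 in RFIplR pigs. The groups overlapped widely. RFIplR pig 3 was the highest of all 24, and without it the median difference was 0.03 in RFIplR minus RFIpl and 0.04 in RFIplR minus RFIneg. Its array was on slide 4, as were those of the highest RFIneg pig (pig 4, 0.14) and the highest RFIpl pig (pig 3, 0.16). RFIneg pig 6, also on slide 4, lay at 0.02. With slide as a block the member medians were 0.056 in RFIplR minus RFIpl and 0.090 in RFIplR minus RFIneg. The part of the slide in these values was not tested. The subunits of complex III with cytochrome c had the highest group mean among the lists with over 4 members, at 0.11 ± 0.12 in RFIplR against -0.01 ± 0.14 in RFIpl and -0.02 ± 0.11 in RFIneg pigs (SD, n = 8).

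**Figure D2:**
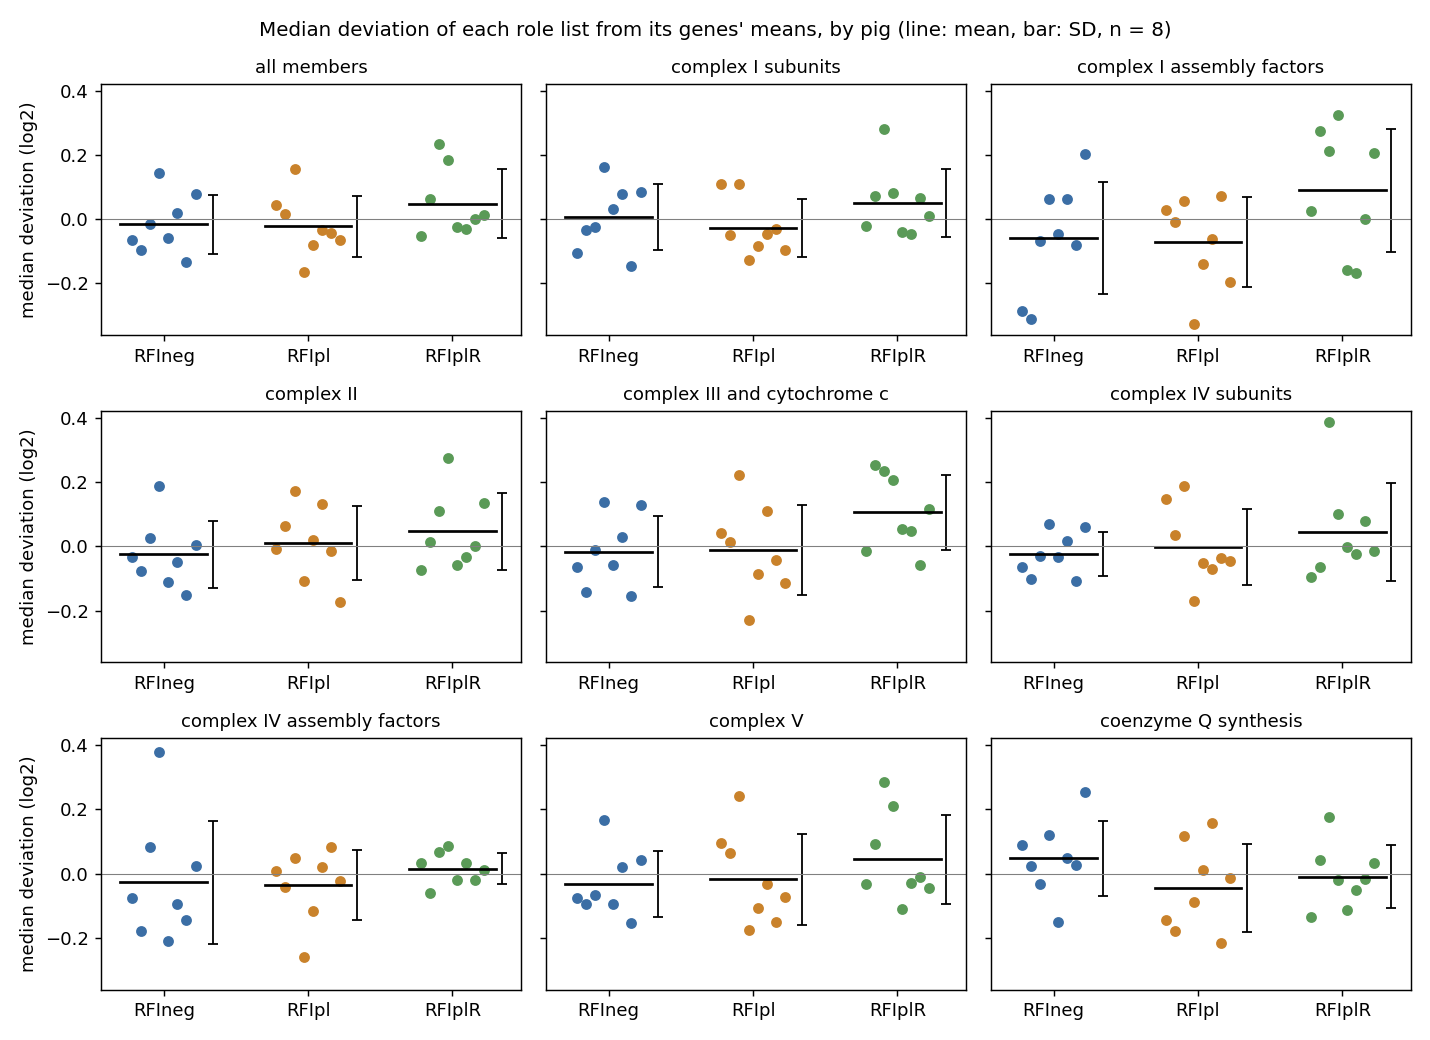
Median deviation (log2) of each role list from its genes' own means, 1 point per pig, with the group mean as a line and the SD as a bar (n = 8). The 3 groups overlap in every list, and RFIplR pig 3 stands above the other RFIplR pigs for complex I (0.28) and complex IV subunits (0.39).

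Brighter members varied together from pig to pig within groups. Over pairs of the 39 members with a mean level above 4, the median correlation of deviations from the group means was 0.46 across the 24 pigs, beside 0.10 for pairs of all 601 named genes that bright. Within lists the median was 0.51 for complex III with cytochrome c, 0.45 for complex V, 0.44 for complex II, 0.25 for complex IV subunits and for complex I assembly factors, 0.14 for complex I subunits and for coenzyme Q synthesis, and 0.08 for complex IV assembly factors. Complex I subunits correlated less with each other than with other members (0.22), as did coenzyme Q synthesis (0.16) and complex IV assembly factors (0.15). These values share arrays and scaling and are given as a description.

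In the list labelled coenzyme Q synthesis, 7 genes were tested: COQ3, COQ4, COQ5, COQ6, COQ7, COQ10A and COQ10B. The list was formed by name, and COQ10A and COQ10B are coenzyme Q binding proteins rather than steps of its synthesis. COQ3 lay between 2.02 and 2.69 (median 2.31) in RFIneg, between 1.56 and 2.1 (median 1.72) in RFIpl and between 1.09 and 2.17 (median 1.78) in RFIplR pigs. Of the RFIneg pigs, 7 lay above every pig of both other groups, and RFIplR pigs 1 and 2 were the lowest at 1.09 and 1.13. COQ3 fell by 0.67 ± 0.14 (SE) in RFIplR minus RFIneg, a 1.59-fold lower level (95% interval -0.96 to -0.38, limma adjusted p = 0.0388). It differed by -0.54 ± 0.14 in RFIpl minus RFIneg (limma adjusted p = 0.144) and by -0.13 ± 0.14 in RFIplR minus RFIpl (limma adjusted p = 0.975), neither of which passed.

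The call on COQ3 sat close to the threshold. It was lost, with adjusted p from 0.0541 to 0.0851, when any 1 of 9 pigs was left out: RFIneg pigs 1, 3, 5, 6, 7 and 8 and RFIplR pigs 2, 4 and 7. It was also lost with slide as a block (-0.62, limma adjusted p = 0.076), with scan day as a block (-0.64, limma adjusted p = 0.0555) and after normexp (-0.53, limma adjusted p = 0.179). Within scan day 1 and scan day 2 the difference was -0.67 and -0.61.

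The 4 probes for COQ3 did not give the same difference. They fall into 2 overlapping pairs, shown here by 30 bases of each probe, 5′ to 3′, with the run shared within the pair in capitals.
A_72_P739141, bases 31 to 60: aggactgtagtaaaaCGGCTTGAAAGTCTC
A_72_P709874, bases 1 to 30: CGGCTTGAAAGTCTCatgtttacagtaaca
A_72_P715693, bases 1 to 30: tgtagcttctgaAAGTTGTAGAACATGTGA
A_72_P774835, bases 1 to 30: tgAAGTTGTAGAACATGTGATTGATCTAGA
The first pair shares a run of 15 bases and the second a run of 48, while the longest run between the pairs is 7 bases. All 4 probes carry the same transcript identifier in the array file.

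In RFIplR minus RFIneg the first pair gave -0.67 ± 0.14 (A_72_P709874, the brightest) and -0.34 ± 0.12 (SE; A_72_P739141, limma adjusted p = 0.238). The second pair gave -0.08 ± 0.12 (A_72_P774835, 95% interval -0.33 to 0.18) and -0.08 ± 0.14 (A_72_P715693, 95% interval -0.36 to 0.21). Only the pair that holds the brightest probe thus lay well below 0, and the average of the 4 probes differed by -0.29 (limma adjusted p = 0.234). The difference between the pairs was not tested.

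**Figure D3:**
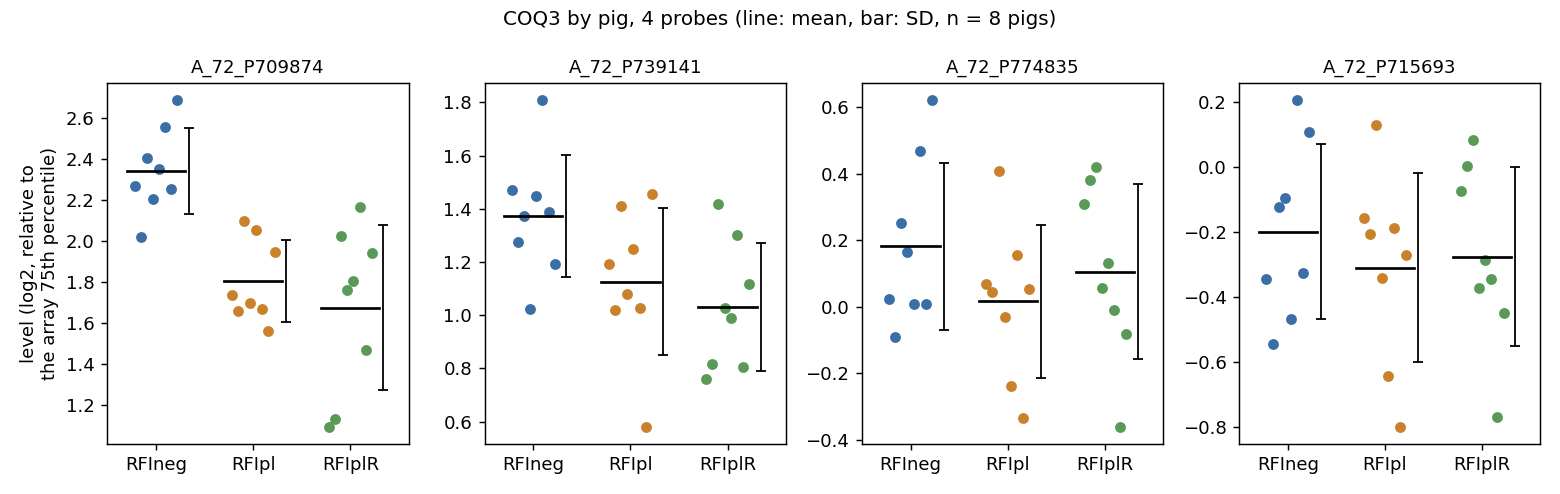
COQ3 level (log2, relative to the array's 75th percentile) of every pig on each of the 4 probes, with group means as lines and SDs as bars (n = 8); the vertical scales differ between panels. On A_72_P709874 the RFIneg pigs sit at 2.02 to 2.69 above most others, while on A_72_P774835 and A_72_P715693 the 3 groups cover the same range.

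No other coenzyme Q gene passed. COQ5, the C-methyltransferase of the pathway, lay between 1.35 and 1.80 in RFIneg, 1.49 and 1.94 in RFIpl and 1.48 and 2.06 in RFIplR pigs, and differed by 0.22 ± 0.08 (SE) in RFIplR minus RFIneg (limma adjusted p = 0.252) and by 0.17 ± 0.08 in RFIplR minus RFIpl. The other tested COQ5 probe, a dim one, differed by -0.10 in RFIplR minus RFIpl and by 0.10 in RFIplR minus RFIneg. COQ4, a scaffold of the biosynthetic complex, differed by -0.14 ± 0.07 in RFIpl minus RFIneg (limma adjusted p = 0.505). COQ10B, a coenzyme Q binding protein, differed by 0.20 ± 0.11 in RFIplR minus RFIpl (limma adjusted p = 0.943). The list was split, with 3 members above 0 and 4 below in RFIplR minus RFIneg and a median of -0.08. COQ7 was dim, well above background in 5, 8 and 6 of the 8 RFIneg, RFIpl and RFIplR pigs.

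All 16 complex I subunits on the array were tested. In RFIpl minus RFIneg 8 lay above 0 and 8 below; in RFIplR minus RFIpl, and again in RFIplR minus RFIneg, 12 lay above and 4 below. The medians were -0.02, 0.06 and 0.08. None passed in any comparison, and 3, 1 and 2 had an unadjusted p below 0.05. They were NDUFB9, NDUFB4 and NDUFA10 in the first comparison, NDUFB6 in the second, and NDUFB4 and NDUFB9 in the third. Among the remaining subunits, NDUFA7, NDUFA9, NDUFA11, NDUFAB1, NDUFB5, NDUFB8, NDUFC1, NDUFS1, NDUFS5, NDUFS6 and NDUFV2 had 95% intervals that held 0 in every comparison. Their differences ran from -0.15 (NDUFS1, of the electron-entry arm) to 0.09 (NDUFB5) in RFIpl minus RFIneg and from -0.19 (NDUFA11, near the detection limit) to 0.12 (NDUFV2, also of the electron-entry arm) in RFIplR minus RFIneg.

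NDUFB9, an accessory subunit of the membrane arm, lay between 4.39 and 5.54 (median 4.77) in RFIneg, 4.87 and 5.51 (median 5.33) in RFIpl and 4.44 and 5.53 (median 5.36) in RFIplR pigs. The groups overlapped, with the lower values mostly in RFIneg. It differed by 0.43 ± 0.17 (SE) in RFIpl minus RFIneg (limma adjusted p = 0.412) and by 0.39 ± 0.17 in RFIplR minus RFIneg (limma adjusted p = 0.329).

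The NDUFB9 probes are shown because the spread between pigs differed between them. The brightest probe and A_72_P473353 share a run of 50 bases, printed in capitals where it falls in the 30 bases shown, while A_72_P574759 shares no run over 5 bases with A_72_P473353.
A_72_P680773, bases 31 to 60: AGGACATACGCTTGCCCTAATAAAGTAACc
A_72_P473353, bases 31 to 60: GCTTGCCCTAATAAAGTAACtcaatatggt
A_72_P574759, bases 1 to 30: aagccatgtatcctgattactttgccaaga
On A_72_P473353 RFIneg pigs 1, 2, 4 and 7 and RFIplR pig 1 lay between 3.06 and 3.39, and the other 19 pigs between 4.37 and 5.46, with none in between. The same 5 pigs gave the 5 lowest values on the overlapping brightest probe, 3 of the 5 lowest on A_72_P574759 and the 5 highest on the dim probe A_72_P496651. The difference in RFIpl minus RFIneg was 1.08 ± 0.34 on A_72_P473353 (limma adjusted p = 0.259), 0.17 ± 0.09 on A_72_P574759 and -0.53 ± 0.31 on A_72_P496651 (SE). The low pigs came from 4 slides and both scan days, and the cause was not tested.

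NDUFB4, another membrane-arm subunit, was near the detection limit, well above background in 5, 7 and 6 of 8 pigs. It lay between -5.52 and -4.31 (median -5.07) in RFIneg, -5.20 and -4.31 (median -4.53) in RFIpl and -5.29 and -4.13 (median -4.59) in RFIplR pigs. The groups overlapped. Its difference of 0.42 ± 0.17 (SE) in RFIplR minus RFIneg (limma adjusted p = 0.303) turned to -0.23 after normexp. NDUFA10 differed by -0.19 ± 0.09 in RFIpl minus RFIneg (limma adjusted p = 0.471). NDUFB6 differed by 0.18 ± 0.08 and NDUFA9 by 0.13 ± 0.09 in RFIplR minus RFIpl, and neither passed (limma adjusted p = 0.919 and 0.962).

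Complex I is built with the help of assembly factors that leave the finished enzyme, and 4 were tested: NDUFAF2, NDUFAF3, NDUFAF4 and NDUFAF6. All 4 lay above 0 in RFIplR minus RFIpl, with a median of 0.15, and none passed. NDUFAF3 lay between 4.08 and 4.51 (median 4.26) in RFIneg, 3.88 and 4.36 (median 4.23) in RFIpl and 4.15 and 4.54 (median 4.41) in RFIplR pigs. The groups overlapped, and it differed by 0.21 ± 0.08 (SE) in RFIplR minus RFIpl (limma adjusted p = 0.864).

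NDUFAF3 was the 1 member of 41 with several tested probes whose probes opposed each other at an unadjusted p below 0.05 in the same comparison. The dim probe A_72_P357053, which the array file assigns to a different transcript identifier than the brightest probe, lay between -4.26 and -3.75 in RFIneg, -4.45 and -3.93 in RFIpl and -4.68 and -4.21 in RFIplR pigs. It differed by -0.29 ± 0.09 (SE) in RFIplR minus RFIpl and by -0.43 ± 0.09 in RFIplR minus RFIneg (limma adjusted p = 0.0375). With that of COQ3 it was 1 of 2 member probes, of 253, past the threshold in RFIplR minus RFIneg, beside 82 of all 29665 tested probes (0.276%). Averaged over its 3 probes, NDUFAF3 differed by -0.046 in RFIplR minus RFIpl, the opposite sign to the brightest probe. NDUFAF2 differed by -0.16 ± 0.09 in RFIpl minus RFIneg and NDUFAF6 by 0.27 ± 0.16 in RFIplR minus RFIneg.

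Complex II, which also serves the citric acid cycle, was measured through SDHA, SDHB and SDHD. SDHB, the iron-sulfur subunit, lay between 5.99 and 6.38 (median 6.22) in RFIneg, 6.02 and 6.43 (median 6.28) in RFIpl and 6.12 and 6.53 (median 6.31) in RFIplR pigs. The groups overlapped almost entirely. SDHB differed by 0.13 ± 0.07 (SE) in RFIplR minus RFIneg (limma adjusted p = 0.477), with all 9 of its probes above 0. SDHA, the flavoprotein, differed by 0.02 ± 0.06, -0.04 ± 0.06 and -0.02 ± 0.06 in the 3 comparisons. SDHD, a membrane anchor, differed by 0.14 ± 0.11 in RFIplR minus RFIneg (limma adjusted p = 0.658), a value that was 0.41 within scan day 1 and -0.16 within scan day 2.

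Complex III was measured through UQCRC1, UQCRB, UQCRFS1 and UQCR10, together with cytochrome c (CYCS), which carries electrons to complex IV and triggers apoptosis when it leaves the mitochondrion. All 5 lay above 0 in RFIplR minus RFIneg, with a median of 0.09, and none passed. CYCS lay between 2.81 and 3.48 (median 3.22) in RFIneg, 2.87 and 3.86 (median 3.48) in RFIpl and 3.14 and 4.04 (median 3.64) in RFIplR pigs. The groups overlapped, with RFIneg pigs the lower. CYCS differed by 0.45 ± 0.14 (SE) in RFIplR minus RFIneg (limma adjusted p = 0.172), by 0.27 ± 0.14 in RFIplR minus RFIpl (limma adjusted p = 0.919) and by 0.18 ± 0.14 in RFIpl minus RFIneg (limma adjusted p = 0.742).

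Of the 13 CYCS probes, 12 lay above 0 in RFIplR minus RFIneg and 9 had an unadjusted p below 0.05. The exception, A_72_P592869, lay at -0.68 ± 0.65 (SE). It is nearly the same sequence as the brightest probe: over 52 aligned bases the probes differ at 3, in capitals here.
A_72_P592869, bases 1 to 30: gctgtaccGtGagcacagatCtgtaaatta
A_72_P573694, bases 9 to 38: gctgtaccAtCagcacagatTtgtaaatta
On A_72_P592869, RFIpl pigs 4, 5 and 7 and RFIplR pigs 1 and 2 lay between -1.48 and 0.38, and the other 19 pigs between 2.01 and 3.87. On the brightest probe those 5 pigs were not low, at 3.53, 3.70, 3.86, 3.61 and 4.04. They came from 4 slides, with 4 on scan day 1 and 1 on scan day 2, and the cause was not tested. UQCR10, a small subunit of complex III, differed by 0.18 ± 0.07 (SE) in RFIplR minus RFIpl (limma adjusted p = 0.89) and by 0.16 ± 0.07 in RFIplR minus RFIneg (limma adjusted p = 0.343). UQCRC1, a core subunit, differed by 0.10 ± 0.08 in RFIpl minus RFIneg. UQCRB kept 1 sign on all 7 probes in each comparison, with differences from 0.04 to 0.12 in RFIplR minus RFIneg.

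**Figure D4:**
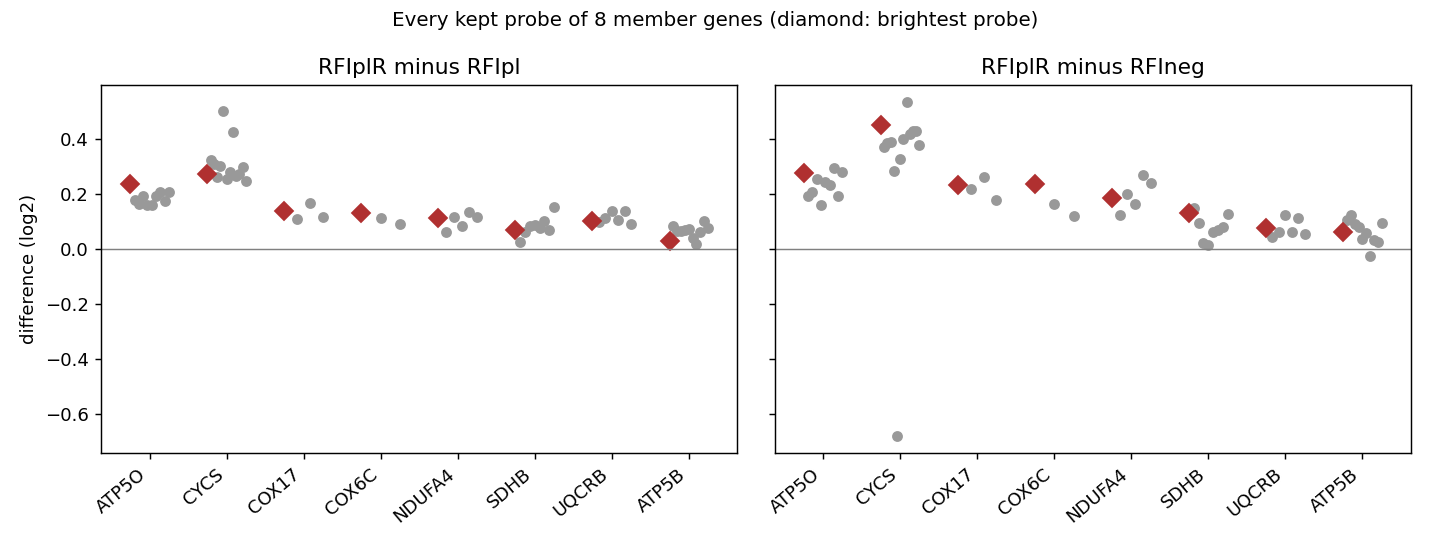
Difference in level (log2) on every tested probe of 8 member genes in RFIplR minus RFIpl and RFIplR minus RFIneg; the diamond is the brightest probe, and all probes read the same pigs. The 10 ATP5O probes lie between 0.16 and 0.30 in RFIplR minus RFIneg, and 1 CYCS probe, A_72_P592869, lies at -0.68.

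Complex IV was measured through 14 tested subunits: the mitochondrially encoded COX1, COX2 and COX3, and the nuclear COX5A, COX5B, COX6A1, COX6B, COX6B2, COX6C, COX7A1, COX7A2, COX7C, COX8A and NDUFA4. None passed. In the 3 comparisons, in the order above, 9, 9 and 10 lay above 0, with medians of 0.03, 0.03 and 0.04. COX6C lay between 6.06 and 6.49 (median 6.33) in RFIneg, 6.13 and 6.62 (median 6.42) in RFIpl and 6.25 and 6.84 (median 6.53) in RFIplR pigs. NDUFA4, first described as a complex I subunit, lay between 6.60 and 6.90 (median 6.70), 6.53 and 7.06 (median 6.82), and 6.72 and 7.25 (median 6.87). For both genes the groups overlapped and the order of the medians was the same. COX6C differed by 0.24 ± 0.10 (SE) and NDUFA4 by 0.18 ± 0.08 in RFIplR minus RFIneg (limma adjusted p = 0.311 and 0.335), and all 3 probes of COX6C and all 6 of NDUFA4 lay above 0.

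The mitochondrially encoded COX1 and COX2, the catalytic core, differed by 0.11 ± 0.07 and 0.08 ± 0.07 (SE) in RFIpl minus RFIneg, and neither passed (limma adjusted p = 0.643 and 0.757). All 24 COX1 probes and all 5 COX2 probes lay above 0 there. Within scan day 1, however, the differences were -0.06 and -0.08, and COX1 stood at 0.24 within scan day 2. COX3 differed by 0.02 in the same comparison. The remaining nuclear subunits other than COX8A lay between -0.10 (COX6A1) and 0.07 (COX5A) there, and between -0.03 (COX7A1) and 0.10 (COX5B and COX6B) in RFIplR minus RFIneg.

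The 1 probe for COX8A, assigned to that gene only by its description in the array file, split the pigs into separate levels in every group. The last 30 bases of this probe are printed because they hold the polyadenylation motif AATAAA, in capitals, which 9.6% of all probes hold on the printed strand.
A_72_P171311, bases 31 to 60: aacAATAAAgtctatttaaaccgggaaaaa
Of the 24 pigs, 12 lay between -2.26 and -1.94 and 12 between 0.67 and 1.95, with none in between. The low level was seen in 3 RFIneg, 4 RFIpl and 5 RFIplR pigs, on all 6 slides and on both scan days (7 and 5 of 12). Its residual SD of 1.87 was above that of 99.89% of tested probes, and its difference of -0.75 ± 0.88 (SE) in RFIplR minus RFIneg had a 95% interval of -2.56 to 1.06. The probe was well above background in all 24 pigs, and the cause of the split was not tested.

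**Figure D5:**
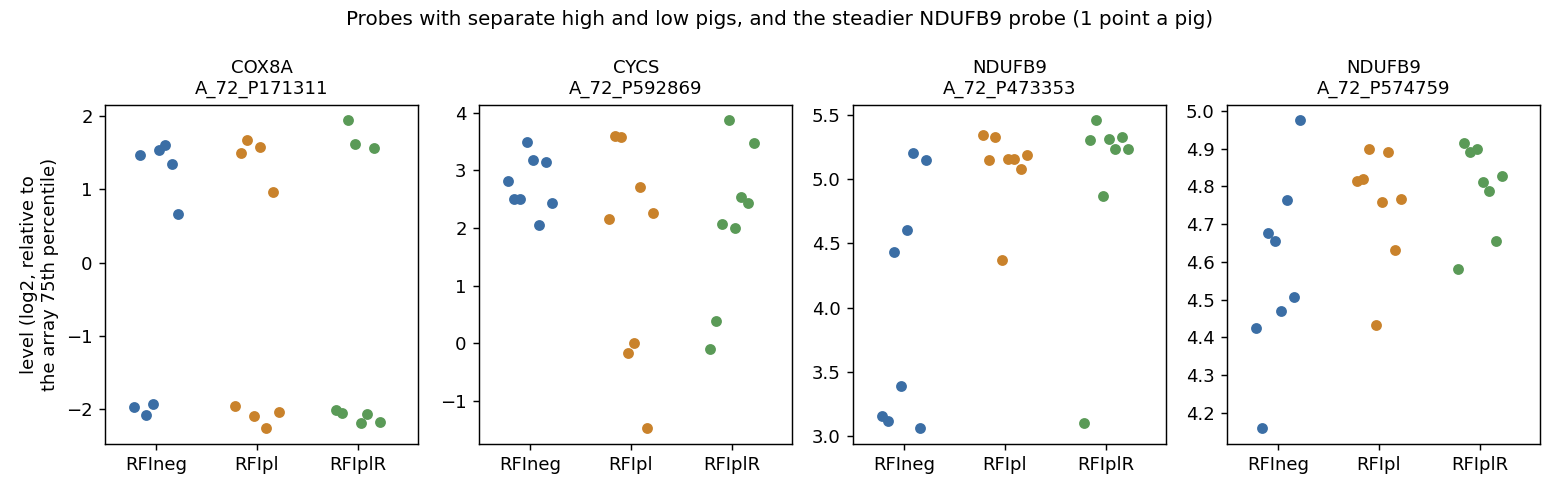
Level (log2, relative to the array's 75th percentile) of every pig, 1 point per pig, on the COX8A probe, 1 CYCS probe and 2 NDUFB9 probes; the vertical scales differ between panels. COX8A splits 12 pigs from 12, A_72_P592869 and A_72_P473353 each set 5 pigs apart, and A_72_P574759 of NDUFB9 runs from 4.16 to 4.98 without such a gap.

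The complex IV assembly factors insert copper and heme into the enzyme, and 5 were tested: COX11, COX15, COX16, COX17 and COX19. None passed, and they lay on both sides of 0, with a median of -0.03 in RFIplR minus RFIneg. COX11, a copper-delivery protein, lay between 0.74 and 2.09 (median 1.61) in RFIneg, 0.73 and 1.85 (median 0.91) in RFIpl and 0.94 and 1.47 (median 1.10) in RFIplR pigs. The groups overlapped, with the highest pigs in RFIneg. COX11 differed by -0.46 ± 0.17 (SE) in RFIpl minus RFIneg (limma adjusted p = 0.363) and by -0.37 ± 0.17 in RFIplR minus RFIneg (limma adjusted p = 0.356). COX17, the copper chaperone of the intermembrane space, lay between 5.02 and 5.42 (median 5.09) in RFIneg, 5.005 and 5.46 (median 5.25) in RFIpl and 5.25 and 5.72 (median 5.30) in RFIplR pigs. The groups overlapped, with RFIplR pigs the higher. COX17 differed by 0.23 ± 0.08 in RFIplR minus RFIneg (limma adjusted p = 0.231), with all 4 of its probes between 0.18 and 0.26. COX19 differed by 0.38 ± 0.22 and COX15, of heme A synthesis, by -0.17 ± 0.16 in RFIpl minus RFIneg.

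Complex V was measured through 13 tested genes, of which 12 lay above 0 in RFIplR minus RFIpl and 11 in RFIplR minus RFIneg, with medians of 0.08 and 0.06, against 6 of 13 and -0.01 in RFIpl minus RFIneg. None passed, and ATP5O was the 1 gene with an unadjusted p below 0.05. ATP5O, which links the catalytic head to the stator, lay between 4.69 and 5.02 (median 4.86) in RFIneg, 4.67 and 5.10 (median 4.89) in RFIpl and 4.93 and 5.58 (median 5.14) in RFIplR pigs. The ranges overlapped, with the RFIplR pigs the highest. ATP5O differed by 0.24 ± 0.09 (SE) in RFIplR minus RFIpl (limma adjusted p = 0.864), by 0.28 ± 0.09 in RFIplR minus RFIneg (limma adjusted p = 0.166) and by 0.04 ± 0.09 in RFIpl minus RFIneg. All 10 of its probes lay above 0 in each comparison, and all 10 had an unadjusted p below 0.05 in RFIplR minus RFIneg.

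ATP5G1, a copy of the proton-carrying ring subunit, lay between 5.22 and 5.66 (median 5.39) in RFIneg, 5.22 and 5.80 (median 5.54) in RFIpl and 5.43 and 5.91 (median 5.55) in RFIplR pigs. It differed by 0.17 ± 0.09 (SE) in RFIplR minus RFIneg (limma adjusted p = 0.482). Its sister copy ATP5G2 differed by -0.07 ± 0.07 in RFIpl minus RFIneg. ATP5J2 differed by 0.13 ± 0.09 in RFIplR minus RFIpl. The catalytic subunits ATP5A1 and ATP5B, with 14 and 11 tested probes, differed by 0.08 and 0.03 in RFIplR minus RFIpl, and ATP5D, ATP5E, ATP5F1, ATP5G3, ATP5I, ATP5J and ATP5S lay between -0.03 and 0.10 there. Several members are near-copies of one another (ATP5G1 to ATP5G3, COX6B and COX6B2, COX7A1 and COX7A2), and whether a probe also binds a copy was not tested.

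The 6 members not tested were CYC1, COX7B, COX8C, COX8H, NDUFA4L2 and ATP5C1. Their probes were well above background on at most 2 of the 8 arrays of any group, and no level is given for them as a gene. COX8C stood out in RFIpl pig 7, at 0.45 and well above background, where the other 23 pigs lay between -8.06 and -5.91.

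None of the related mitochondrial genes outside the member rule passed in any comparison. Of the 10 other mitochondrially encoded subunits, 9 lay above 0 in RFIpl minus RFIneg (median 0.10), 5 in RFIplR minus RFIpl (median -0.003) and 8 in RFIplR minus RFIneg (median 0.09). Of these, ATP8 and ND4L of mitochondrial DNA differed by 0.21 ± 0.08 and 0.20 ± 0.10 (SE) in RFIpl minus RFIneg (limma adjusted p = 0.407 and 0.505). The citric acid cycle, which supplies the electrons, had 6 of 8 genes above 0 in RFIplR minus RFIpl and 7 of 8 in RFIplR minus RFIneg, with medians of 0.08 and 0.05, and its enzymes IDH3A and DLST differed by 0.20 and 0.19 in the latter (limma adjusted p = 0.445 and 0.65). Of 9 adenine nucleotide and phosphate carriers, uncoupling proteins and pores, 7 lay above 0 in RFIplR minus RFIneg, with the pore VDAC3 at 0.26 and the uncoupling protein UCP2 at -0.24 in RFIplR minus RFIpl.

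The mitochondrial ribosome, which makes the mitochondrially encoded subunits, had 3 of 12 proteins above 0 in RFIpl minus RFIneg and 10 of 12 in RFIplR minus RFIpl. In RFIplR minus RFIneg 6 lay above 0 and 6 below. The medians were -0.09, 0.06 and -0.0002. MRPL24 differed by 0.36 in RFIplR minus RFIpl (limma adjusted p = 0.742) and MRPL18 by 0.22 in RFIplR minus RFIneg (limma adjusted p = 0.198). Of the regulators of mitochondrial biogenesis, the coactivator PPARGC1A differed by 0.39 in RFIplR minus RFIpl (limma adjusted p = 0.962) and the transcription factor TFAM by -0.12 in RFIpl minus RFIneg. Of the 4 regulators measured, 1, 2 and 1 lay above 0 in the 3 comparisons, with medians of -0.04, 0.01 and -0.06. The 4 assembly factors outside the rule lay between -0.14 and 0.09 in RFIpl minus RFIneg, with HIGD2A lowest and PET100 highest. Only 1 of them lay above 0 in RFIplR minus RFIpl and 1 in RFIplR minus RFIneg, with medians of -0.01 and -0.04. ETFA, which feeds electrons from fatty acid oxidation to coenzyme Q, differed by 0.18 in RFIplR minus RFIneg (limma adjusted p = 0.415).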

How the data were processed

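Total RNA (150 ng per pig) was amplified and labelled with Cy3, per the labels' protocols, and hybridised to 1-colour Agilent arrays. The deposited scanner files give a processed intensity per spot, background-subtracted and detrended per the file headers. The authors also deposited log2 values of 27564 features, which equalled log2 of that signal minus the array median. R 2.10.0 is listed in the submitters' processing notes. The scanner's mean signal and local background intensity, also deposited, served only for normexp.

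Here the processed signal of 43803 non-control spots, without spots flagged as outliers, was put on the log2 scale, the array's 75th percentile was subtracted, and spots of 1 probe were averaged. No probe that represents a gene lost a value to a flag. Tested were the 29665 probes that the scanner flagged as well above background in 6 or more of the 8 pigs of any group. Differences were fitted with limma 3.58.1 in R 4.3.3 over all 24 arrays, with Benjamini-Hochberg adjustment over all tested probes; the fit was tested on simulated data. Figures used Python 3.11.15 and matplotlib 3.10.9. The number of arrays limits the precision.

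Member probes were named by gene symbol (185), description (50), RefSeq accession (17) or gene identifier (13). Names taken only from a description, among them those of COX8A, COX11, COX6B2, NDUFB4, NDUFA10 and the brightest NDUFAF3 probe, were not checked against a current pig transcriptome. The members, the lists and the alternatives were chosen with earlier results of these data known. Named were all members past the threshold or with an unadjusted p below 0.05, up to 2 per list and comparison with the smallest p, and the smallest F test p of each list; COX8A, A_72_P592869, the NDUFB9 and COQ3 probes and genes given only with their list were chosen after their values were seen. The labels give 8 pigs per condition and pair no animals. Alternatives covered background correction, scaling, filter, slide, scan day, replicate number, array weights, probe choice, groups fitted, the deposited table and leaving out pigs or a slide. Positions were not derived. Counts cover all tested members, but 1 of them is not reported here by itself.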

Additional observations from a re-analysis of the deposited data

Results flagged for a closer look

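Single pigs stood apart from the rest of their group in 14 of 164 groups of 8 values examined, by the 95% limit of Dixon's test on the gap to the nearest pig; chance gives about 1 in 20. RFIplR pig 3 was the highest for the median deviation of complex I subunits, at 0.282 against at most 0.08 in the other RFIplR pigs, for complex IV subunits, at 0.387 against at most 0.099, and for ATP5J2, at 6.709 against at most 6.417. Its array was on slide 4, which also held the pig with the highest median deviation of all members in each other group. RFIplR pig 1 was low for NDUFB9, at 4.436 against at least 5.202, and on its probe A_72_P473353, at 3.1 against at least 4.873. On that probe RFIpl pig 4 lay at 4.37 against at least 5.08.

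RFIpl pig 7 was high for NDUFAF6, at -0.311 against at most -0.852, on the NDUFAF3 probe A_72_P131486, at 0.041 against at most -0.647, and on the COX8C probe, at 0.449 against at most -5.914. COX8C also stood out in RFIneg pig 2, at -6.007 against at most -7.12. SDHA lay at 4.596 in RFIpl pig 4 against at least 4.768, and COQ5 at 1.937 in RFIpl pig 6 against at most 1.688. Below the detection filter, the COX8H probe A_72_P223572 lay at -5.707 in RFIplR pig 4 against at most -6.53, and the ATP5C1 probe at -5.699 in RFIpl pig 5 against at most -7.728. None of these departures was explained by a test.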

How the results depend on the processing

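With 0 members past the threshold in RFIpl minus RFIneg and in RFIplR minus RFIpl, no alternative called any member there. In RFIplR minus RFIneg the 1 member called became 0 under 11 of 18 alternatives: normexp, no filter on dim probes, slide as a block, scan day as a block, scan day 1 alone, scan day 2 alone, array weights, only the 2 groups compared, without RFIplR pigs 7 and 8, without slide 3, and the mean of all kept probes of a gene. COQ3 then differed by -0.68 to -0.29, always below 0. Leaving out 1 pig gave 0 to 1 member called in RFIplR minus RFIneg and 0 to 1 by the F test. The F test called 1 member after quantile normalization, with array weights and with replicate number as a block, against 0.

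The members' median difference in RFIplR minus RFIneg moved from 0.065 to 0.18 under normexp, by less than 1 SD between pigs in all other settings, and ranged from 0.04 to 0.09 with 1 pig left out. Of the differences with an unadjusted p below 0.05, 3 changed sign: NDUFB4 under normexp, to -0.13 in RFIpl minus RFIneg and -0.23 in RFIplR minus RFIneg, and NDUFAF3 in RFIplR minus RFIpl, to -0.046 as the mean of its probes. Among the others, as the mean of its probes NDUFAF3 turned from 0.13 to -0.11 in RFIplR minus RFIneg. SDHD turned to -0.16 there within scan day 2, and COX1 and COX2 turned to -0.06 and -0.08 in RFIpl minus RFIneg within scan day 1. ATP5G2, ATP5G1, SDHA, NDUFAF6, NDUFAF3 (RFIpl minus RFIneg) and SDHD (RFIplR minus RFIpl) also changed sign in some setting, with values between -0.05 and 0.02 there. For NDUFAF3 the probes themselves oppose each other; the cause for NDUFB4 was not tested. Normexp also raised SDHB to 0.27 and UQCR10 to 0.31 in RFIplR minus RFIneg, with no call gained.

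Pig numbers were not treated as pairs, since the labels link no animals and not every pair correlated above 0.1: same-numbered pigs correlated at -0.19 to 0.32, -0.04 to 0.42 and -0.17 to 0.12 in the 3 comparisons, 1, 5 and 2 of 8 pairs were above 0.1, and 1, 4 and 0 of 8 matched their own number best. In RFIplR minus RFIpl the same-numbered pigs 2, 3, 4, 6 and 7 also shared a scan day. The cause of the higher correlations there was not tested. With replicate number as a block 0, 0 and 1 members passed in the 3 comparisons, and COQ3 had an adjusted p of 0.0156 with limma in RFIplR minus RFIneg. Keeping spots flagged as outliers, an alternative added after seeing the data, changed no call on a member. Dim members (NDUFB4, NDUFA11, NDUFS1, COQ7) were below the detection limit in some pigs of each comparison.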
